A study of Caenorhabditis elegans with 2 samples.

Results

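The cytosolic ribosomal protein genes of Caenorhabditis elegans were followed in a chromatin immunoprecipitation (ChIP-seq) of NFYA-2, an A subunit of the transcription factor NF-Y. They were chosen by name, as the protein-coding genes whose Ensembl symbol starts with rpl-, rps- or rla-. This gave 81 of the 19973 protein-coding genes on the nuclear chromosomes: 50 of the large subunit, among them the 3 rla genes, and 31 of the small subunit. For each gene, ranked regions were taken with a summit inside the promoter window, which spans 1000 bp before and 200 bp after the gene start, and the region with the highest signal was kept. A region with its summit in the window was present at 62 of the 81 genes, and the other 19 had none.

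Both libraries came from whole young adults of strain RW12238, aged 64 hours, which had been synchronised by bleaching and starvation as L1 larvae. The strain carries st12238[nfya-2::TY1::EGFP::3xFLAG] I, a tag inserted by CRISPR at nfya-2 itself, and the precipitation used an anti-GFP antibody on chromatin sheared to 200 to 800 bp. The 2 libraries are biological replicates of this 1 group. No other group, and no sample without the tag, was used here, and the whole animal mixes all tissues, so a value cannot be placed in a cell type.

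The cytosolic ribosome joins ribosomal RNA with proteins that are made in near-equal amounts from many single genes spread over the chromosomes. Several of these genes carry small nucleolar RNAs (snoRNAs), the guides for modification of ribosomal RNA, inside their introns, so that 1 transcript can yield both. NF-Y is a trimer of A, B and C subunits in which the A subunit reads the letters CCAAT, a box found in many promoters of animals. The worm has a pair of A subunit genes, and nfya-2 is the one tagged here. Roles of single ribosomal proteins are given below from work on bacterial, yeast and mammalian ribosomes.

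The deposited series list held 71547 ranked regions, nearly all 240 bp wide, each with a signal in the peak caller's own units and a signal in each replicate. The irreproducible discovery rate (IDR) of a region is small where both replicates rank it alike and high. A stricter list, named conservative by the submitters, held 281 regions, and its largest IDR was 0.00999. Read counts were not used here, so library depth is unknown, and signals were compared only within a list.

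The strongest promoter regions of the ribosomal protein genes lay at rpl-3, rpl-35, rpl-20 and rpl-15, all upstream of the start and all in the conservative list. Each had TACACT, or AGTGTA on the other strand, within 100 bp of its summit. These letters were found by reading the sequences of the strongest regions, so they were chosen after the values were seen. The windows of 201 bases around the summits of rpl-35, rpl-20 and rpl-15 are printed because they hold these letters at strong sites. That of rps-1, a lower-ranked gene that holds the same letters, follows them. Each is written along the strand of its gene, with TACACT and AGTGTA in capitals, read from the reference genome WBcel235 (the sequence of ce11): rpl-35 is chrIII:7854589-7854789 on the plus strand, rpl-20 is chrIV:4749998-4750198 on the minus strand, rpl-15 is chrIV:654831-655031 on the minus strand, and rps-1 is chrIII:4475539-4475739 on the plus strand.
rpl-35: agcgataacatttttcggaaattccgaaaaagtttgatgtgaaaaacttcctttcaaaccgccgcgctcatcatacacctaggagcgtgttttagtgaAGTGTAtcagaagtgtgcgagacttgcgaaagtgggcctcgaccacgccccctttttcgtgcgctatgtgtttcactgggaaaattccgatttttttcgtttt
rpl-20: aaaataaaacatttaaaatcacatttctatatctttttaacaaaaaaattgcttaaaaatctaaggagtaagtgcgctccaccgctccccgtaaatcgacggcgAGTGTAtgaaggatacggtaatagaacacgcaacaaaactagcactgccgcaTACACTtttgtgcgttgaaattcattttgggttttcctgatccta
rpl-15: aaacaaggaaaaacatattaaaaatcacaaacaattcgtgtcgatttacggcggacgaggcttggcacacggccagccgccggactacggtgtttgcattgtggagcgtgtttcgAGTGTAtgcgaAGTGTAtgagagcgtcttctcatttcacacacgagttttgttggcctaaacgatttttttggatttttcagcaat
rps-1: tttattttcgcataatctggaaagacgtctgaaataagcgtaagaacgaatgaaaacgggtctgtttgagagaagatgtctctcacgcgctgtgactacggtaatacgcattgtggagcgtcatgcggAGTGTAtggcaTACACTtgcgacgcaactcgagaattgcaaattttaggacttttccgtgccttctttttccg
The windows of rpl-20, rpl-15 and rps-1 held 2 copies each, and that of rpl-35 held 1. In rpl-15 both copies lay on the strand opposite to the gene, and in rpl-20 and rps-1 there was 1 on each strand.

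Ribosomal protein genes had promoter regions more often than coding genes at large, and their regions were stronger. A region was present at 62 of 81 ribosomal protein genes, or 76.5% (95% Wilson interval 66.2 to 84.4%), against 61.3% of all coding genes, which include them. The interval covers counting error only and treats genes as independent, although all of them share the same libraries. The median signal was 33.0 over the 62 ribosomal protein genes and 25.4 over the 12245 coding genes with a region, a ratio of 1.30. The kept signal is the highest in the window, and the ribosomal protein genes had more regions there, a mean of 1.58 against 1.41. Whether this raised the ratio was not tested, and keeping the region nearest to the start gave 1.11. With the highest region kept, the replicate 1 medians were 15.9 for ribosomal protein genes and 12.8 for coding genes. In replicate 2 they were 18.0 and 13.2 in the same order. The ratio was thus above 1 in each library, at 1.24 in replicate 1 and 1.36 in replicate 2.

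The same held where each replicate's own ranked list was read. In replicate 1, 51 of 81 ribosomal protein genes had a region in the window, or 63.0%, against 45.8% of coding genes. In replicate 2, 56 had one, or 69.1%, against 51.1%. Median signals from these lists were 17.0 for ribosomal protein genes and 14.4 for coding genes in replicate 1, and 22.2 and 16.6 in the same order in replicate 2.

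**Figure D1:**
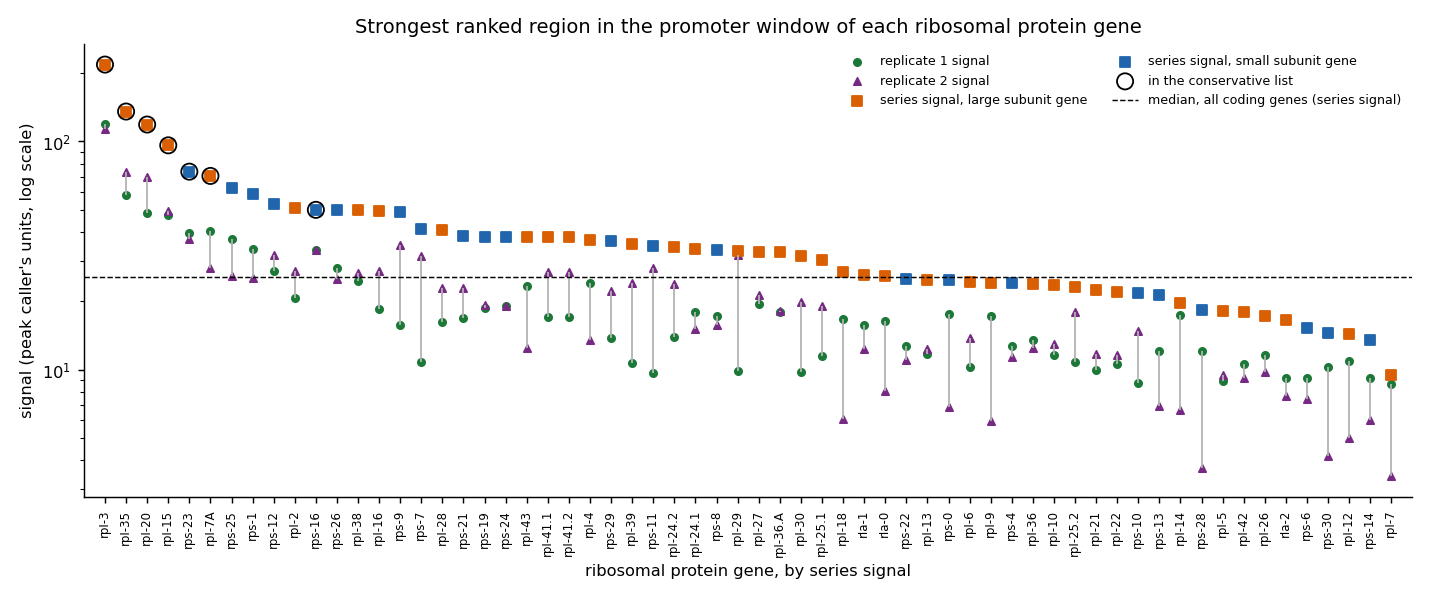
Signal of the strongest promoter region of each of the 62 ribosomal protein genes with one (log axis, peak caller's units), from high to low; squares are the series signal by subunit, circles and triangles the 2 replicates, joined by a line, open rings mark kept regions that are in the conservative list, and the dashed line is the median of all coding genes, 25.4. At the left stand 4 large subunit genes, from 96.2 to 217, with both replicates high, and the other 58 genes lie between 9.43 and 73.8.

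The higher median did not extend to every gene, and a small number of genes stood at the top of the genome-wide range. Of the 62, 17 lay above the 90th percentile of coding genes with a region (signal 39.5) and 6 above the 99th (signal 64.8). The median of coding genes was exceeded by 38 of the 62, and the others were below it.

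In the conservative list, 8 of 81 ribosomal protein genes had a peak in the promoter window, or 9.88% (Wilson interval 5.09 to 18.3%), against 0.726% of all coding genes. The 8 were rpl-3, rpl-35, rpl-20, rpl-15, rps-23, rpl-7A, rps-16 and rla-1. In the other thresholded list of the series, 7 ribosomal protein genes had a peak, against 0.961% of coding genes. They were rpl-3, rpl-7A, rpl-15, rpl-20, rpl-35, rps-23 and rps-25. In the thresholded list of replicate 1 there were 4, against 0.305% of coding genes, and in that of replicate 2 there were 4, against 0.255%. Both lists named rpl-3, rpl-15, rpl-20 and rpl-35. In the stronger part of the conservative list, divided at its median signal, the promoter count was 5 ribosomal protein genes, against 0.441% of coding genes. At an IDR of at most 0.05, 13 had a ranked region there, against 1.64%.

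Among the large subunit genes, rpl-3 (WBGene00004414) encodes a protein that reaches towards the peptidyl transferase centre, where peptide bonds form. Its region, chrIII:3867469-3867708, had a signal of 217, with 120 in replicate 1 and 113 in replicate 2. The summit was 265 bp upstream of the start, between genes, and no other coding gene started within reach of it. Its IDR was 6.46e-05, and it was the eighth strongest conservative peak of the series.

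rpl-35 (WBGene00004449), whose protein sits beside the exit of the tunnel through which new peptides leave, came next. The region, chrIII:7854569-7854808, had a signal of 135, with 58.1 in replicate 1 and 73.6 in replicate 2. Its summit was 445 bp upstream and between genes, and rpl-35 was the one coding gene in reach.

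The region of rpl-20 (WBGene00004432), chrIV:4749978-4750217, had a signal of 119, with 48.5 in replicate 1 and 70.1 in replicate 2. Its summit was 320 bp upstream of rpl-20 but 142 bp from the start of Y17G9B.5, so the region cannot be given to 1 of the 2 genes. The region of rpl-15 (WBGene00004427), chrIV:654811-655050, had a signal of 96.2, with 47.5 in replicate 1 and 49.4 in replicate 2. Its summit was 355 bp upstream of rpl-15, and the window of K11H12.8 reached it too. The lower replicate signal of any of these 4 genes, 47.5, was above both replicate signals of the strongest promoter region of every other gene in the set.

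rps-23 (WBGene00004492) encodes a small subunit protein at the decoding centre, where codon and anticodon meet. Its region, chrIV:12391193-12391432, had a signal of 73.8, with 39.7 in replicate 1 and 37.4 in replicate 2, and its summit was 260 bp upstream, where the window of dpm-3 took it in too. For rpl-7A (WBGene00004419), a large subunit gene, the region chrIV:4390493-4390732 had a signal of 70.6, with 40.7 in replicate 1 and 27.8 in replicate 2. Its summit was 23 bp upstream of the start, and the window of set-21 also took it in.

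The peak at rps-16 (WBGene00004485) differed in place, since its summit fell 69 bp downstream of the start in an exon of the gene. The region, chrV:15000352-15000591, had a signal of 50.2, with 33.4 in each replicate. The protein's tail reaches the transfer RNA in the peptidyl site.

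The peak at rla-1 rests on a weak entry. rla-0, rla-1 and rla-2 encode the acidic stalk proteins that recruit translation factors to the large subunit. The conservative peak in the window of rla-1 (WBGene00004409), chrI:2069429-2069668, had a signal of 2.38 with its summit 26 bp downstream of the start. That signal was the lowest of all 281. It carried replicate signals of 24.0 and 49.2, the same as those of a region with a signal of 64.7 whose summit was 227 bp downstream of the start, outside the window. Without the weaker of peaks with the same replicate intervals, 7 ribosomal protein genes kept a conservative promoter peak. No coding gene share is given for that setting. The highest ranked region within the window of rla-1 had a signal of 26.1, with 15.6 in replicate 1 and 12.3 in replicate 2, and its summit was 963 bp upstream. rla-0 had a signal of 25.9 at 63 bp upstream, and rla-2 a signal of 16.6 at 189 bp downstream. The strongest promoter regions of the stalk genes were thus near or below the median of coding genes.

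Of the 10 highest signals, the remaining 4 belonged to rps-25, rps-1, rps-12 and rpl-2, none with a conservative peak in the window. rps-25, known from yeast and mammals for its part in initiation at some viral messages, had a signal of 62.6, with 37.5 in replicate 1 and 25.7 in replicate 2, at 82 bp downstream. rps-1 had a signal of 58.9, with 33.6 in replicate 1 and 25.1 in replicate 2, at 279 bp upstream. Its summit lay in an exon of another gene. rps-12 had a signal of 53.2, with 27.0 in replicate 1 and 31.9 in replicate 2, and its summit, 222 bp upstream, was nearer to ska-3 at 71 bp. rpl-2, whose protein lies next to the peptidyl transferase centre, had a signal of 51.1, with 20.7 in replicate 1 and 27.0 in replicate 2, at 55 bp downstream.

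The 5 lowest signals were 9.43 at rpl-7, 13.5 at rps-14, 14.3 at rpl-12, 14.5 at rps-30 and 15.2 at rps-6. rpl-7 had 8.65 in replicate 1 and 3.40 in replicate 2, and rps-6, the target of S6 kinase, had 9.23 in replicate 1 and 7.46 in replicate 2. All 5 had an IDR of 0.835, the largest in the set. Genes with higher signals had the same value, up to rpl-6 with a signal of 24.1.

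The IDR was at most 0.05 at 12 of the 62 regions, against 2.65% of coding genes with a region, and above 0.5 at 34, against 75.1%. Its median was 0.590 at ribosomal protein genes and 0.651 at coding genes. Replicate signals differed by a median of 1.39-fold at ribosomal protein genes and 1.45-fold at coding genes. Replicate 2 was the higher one at 32 of 62. Across the 62 genes the rank correlation of the replicates was 0.553, against 0.206 across the 12245 coding genes. These are descriptions across genes that share 2 libraries, and neither is a test.

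Genes whose symbols differ by a suffix had like or unlike signals. rpl-24.1 had 33.8 and rpl-24.2 had 34.4. rpl-25.1 had 30.3 and rpl-25.2 had 23.0, and rpl-36.A had 32.7 and rpl-36 had 23.6. rpl-7A had 70.6 against 9.43 for rpl-7. The symbols of rpl-7A and rpl-7, or of rpl-36.A and rpl-36, do not mean that the genes are copies. rpl-41.1 and rpl-41.2 lie side by side, and a single region with a signal of 38.2 was counted for both, 125 bp downstream of rpl-41.1 and 977 bp upstream of rpl-41.2. rpl-11.1 and rpl-11.2, which encode a protein that binds the smallest ribosomal RNA of the large subunit, had no region in the window.

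The 62 genes drew on 61 distinct regions, and 31 of them had 1 region in the window. Another coding gene's promoter window took in the same region at 35 of the 62. The summit was nearest to the ribosomal protein gene itself at 39, where the median signal was 34.4, and nearer to another coding gene at 23, where it was 24.7. By position, 23 summits lay between genes, 19 in an exon and 6 in an intron of another gene, 12 in an exon of the gene itself and 2 in an intron of it. No share over all coding genes is given for these sharing and position counts, so they cannot be called particular to the set. Genes within a window of each other cannot be told apart by these data.

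Large and small subunit genes did not separate. A region was present at 39 of 50 large subunit genes and 23 of 31 small subunit genes, and a conservative peak at 6 large and 2 small. The median signal was 31.4 for the large subunit and 36.6 for the small, a ratio of 0.860. In replicate 1 the medians were 16.1 for the large and 15.6 for the small subunit, a ratio of 1.03, and in replicate 2 they were 15.1 and 19.3 in the same order, a ratio of 0.784. The direction turned between replicates, and the SD of the ratio over the 2 replicates was 0.174. The 4 highest genes were all of the large subunit, so the top of the range and the median went opposite ways.

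snoRNA-hosting genes were all covered by a region, but their signals did not stand apart either. An annotated snoRNA gene lies within the gene, on the same strand, at 13 ribosomal protein genes. A region in the window was present at 13 of 13 hosts and 49 of 68 other genes (72.1%). The hosts were rpl-15, rps-23, rpl-7A, rps-12, rpl-2, rpl-4, rps-29, rpl-24.1, rpl-6, rps-4, rps-13, rpl-26 and rpl-7, and the first 3 have conservative peaks. The median signal was 36.6 for hosts and 32.7 for the others, a ratio of 1.12. In replicate 1 hosts had 17.9 and others 15.6, a ratio of 1.15, while in replicate 2 hosts had 15.1 and others 18.1, a ratio of 0.837. The hosts thus were higher in one library and lower in the other, with an SD of the ratio of 0.219. At all 13 hosts the first snoRNA began downstream of the summit, by 90 to 1245 bp with a median of 648 bp. This order was largely set by the window, which ends 200 bp after the start, while the snoRNAs lie inside the gene.

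**Figure D2:**
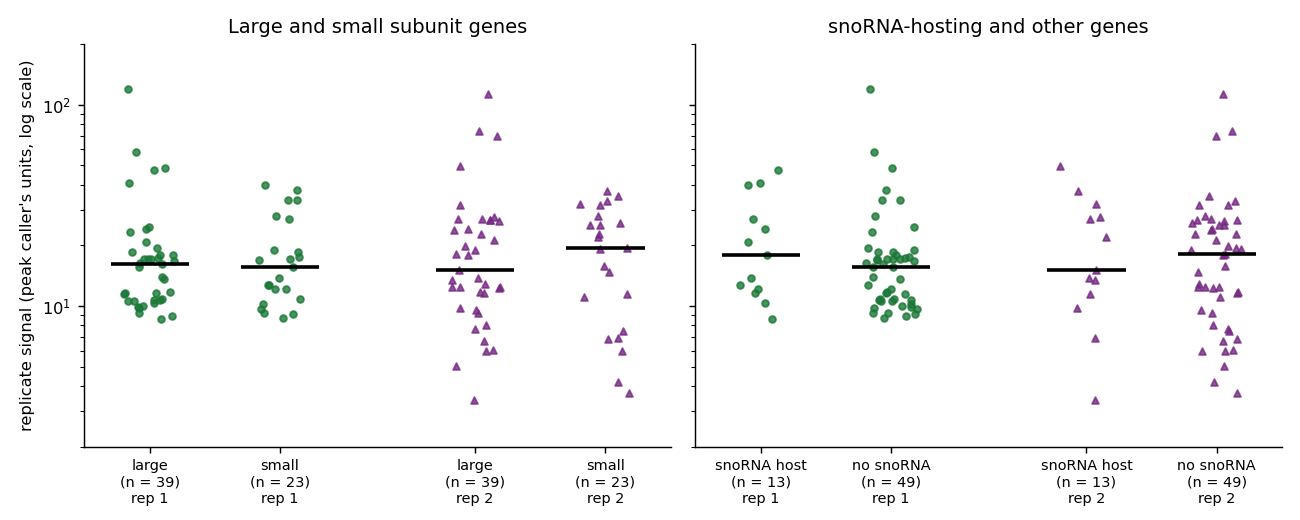
Replicate signals of the strongest promoter region (log axis, peak caller's units), left panel for 39 large and 23 small subunit genes, right panel for 13 snoRNA hosts and 49 other genes; each point is a gene and bars are medians, with replicate 1 left of replicate 2. The groups overlap almost wholly, and the order of the medians turns between replicates in both panels (large over small 1.03 and 0.784, hosts over others 1.15 and 0.837).

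The kept summits lay mostly upstream of the start at ribosomal protein genes and at coding genes alike. The median offset was 322 bp upstream at ribosomal protein genes and 372 bp upstream at coding genes. A summit downstream of the start was kept at 22.6% of ribosomal protein genes and 19.6% of coding genes, and one within 100 bp of the start at 16.1% and 18.2% in the same order. Beyond 500 bp upstream were 32.3% of the ribosomal protein genes and 39.6% of coding genes.

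Counting every ranked summit in bins of 200 bp gave a more uneven picture. In the bin from -800 to -601 bp, 22.2% of the 81 ribosomal protein genes had a summit, against 14.1% of coding genes. From 400 to 201 bp upstream, 27.2% of the 81 ribosomal protein genes had a summit, against 14.1% of coding genes. In the 200 bp before the start, 11.1% had one, against 13.6%. The summits of rpl-3, rpl-20, rpl-15 and rps-23 lie from 400 to 201 bp upstream. In the first 200 bp of the gene, 30.9% had a summit, against 16.7%. From 200 to 399 bp downstream, 46.9% had a summit, against 15.7%.

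**Figure D3:**
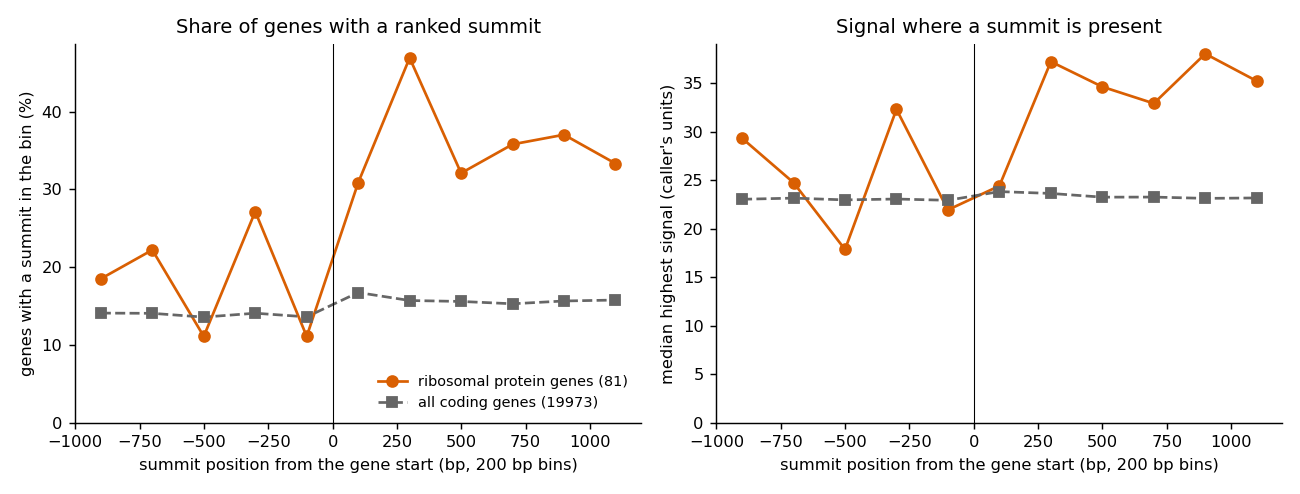
Left, percent of the 81 ribosomal protein genes and of the 19973 coding genes with a ranked summit in each 200 bp bin around the gene start; right, median of the highest signal in the bin over genes with one. Ribosomal protein genes have 22.2% at -800 to -601 bp, 27.2% at 400 to 201 bp upstream, 30.9% in the first 200 bp and 46.9% at 200 to 399 bp downstream, while coding genes stay between 13.6% and 16.7% across all bins.

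Since the profile did not end at the window, the stretch from 201 to 1200 bp downstream was read in the same way, a choice made after the values were seen. A region lay there at 80 of 81 ribosomal protein genes (98.8%), against 58.4% of coding genes, and rps-16 was the exception. The median signal was 41.5 at ribosomal protein genes and 25.4 at coding genes, a ratio of 1.63. In replicate 1 the medians were 21.1 for ribosomal protein genes and 12.9 for coding genes, and in replicate 2 they were 25.2 and 13.2 in the same order. Both replicates thus gave the ribosomal protein genes the higher signal.

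Ribosomal protein genes are short, with a median length of 754 bp against 2027 bp for coding genes, so this stretch often leaves the gene. Of the 80 summits, 34 lay in an exon and 8 in an intron of the gene, and 38 lay past its end. Restricted to summits inside the gene, 66 of 81 ribosomal protein genes (81.5%) had a region, against 53.6% of coding genes. The nearest coding start was that of the ribosomal protein gene at 44 of the 80. For this count, and for the exon, intron and past-end counts, no coding gene share is given.

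In the conservative list, 12 of 81 ribosomal protein genes (14.8%) had a downstream peak, against 0.365% of coding genes. The strongest was at rpl-43, with a signal of 88.8 (37.9 in replicate 1, 53.6 in replicate 2), 569 bp downstream of the start of a gene 276 bp long. At rpl-27 the signal was 85.1 (52.3 in replicate 1, 33.3 in replicate 2), 717 bp downstream of the start and past the end of a gene of 556 bp. The other 10 were rps-25 (75.1), rps-5 (73.0), rps-17 (72.3), rps-27 (68.1), rpl-29 (67.8), rps-22 (66.8), rpl-16 (65.9), rla-1 (64.7), rpl-3 (64.7) and rps-13 (59.9). Those of rla-1 and rpl-3 lay inside the gene, and those of all the others past its end. Those of rpl-43, rpl-27, rps-25, rps-5, rpl-29, rps-22 and rpl-16 also lay in the promoter window of a coding gene outside the set. The peak of rpl-43 was 95 bp downstream of such a start, and that of rpl-27 was 61 bp upstream of one. These peaks cannot be given to 1 gene. Counting either window, 18 ribosomal protein genes had a conservative peak, against 1.07% of coding genes. An entry in both was found at 2, rpl-3 and rla-1, among 4 coding genes in all (0.02%). The 2 entries of rla-1 carried the same replicate signals, 24.0 and 49.2, from the same replicate intervals. They are thus not separate peaks, and of these 2 genes only rpl-3 had a separate peak in each window. The downstream count depended on the list, with 20 genes in the other thresholded list, against 0.611% of coding genes, and 5 in the stronger part of the conservative list, against 0.15%. There were 4 in the list of replicate 1, against 0.115%, and 5 in that of replicate 2, against 0.12%. It was 7, against 0.25%, where the nearest coding start had to be that of the gene. Of the 12 peaks named above, only those of rps-17, rps-27, rla-1, rpl-3 and rps-13 had the start of that gene nearest. These are fewer than 7, and the reason was not established. The named peaks of rpl-43, rpl-27, rps-25, rps-5, rpl-29, rps-22 and rpl-16 were nearer to another coding start.

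All 19 genes without a promoter region had their nearest summit downstream of the window, 212 to 651 bp from the start with a median of 386 bp. They were rpl-1, rpl-11.1, rpl-11.2, rpl-17, rpl-19, rpl-23, rpl-31, rpl-32, rpl-33, rpl-34, rpl-37, rps-2, rps-3, rps-5, rps-15, rps-17, rps-18, rps-20 and rps-27. The signals of these nearest regions were 9.92 to 61.1, with a median of 37.1. The lowest was at rpl-32 and the highest at rps-20. rps-5, rps-17 and rps-27 are also among the 12 with a conservative peak further downstream.

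At the 61 genes with a region in both windows, the downstream one was the stronger at 42 (68.9%), against 49% of the 7562 coding genes with both. It was stronger at 40 of 61 in replicate 1 and at 36 in replicate 2. The coding gene share is for the series signal, and none is given for single replicates. The 4 genes with the strongest promoter regions had promoter signals above every downstream signal of the set, so their order is fixed by that choice. rpl-3 had 217 in the promoter window and 64.7 downstream, and rpl-35 had 135 and 52.8 in the same order. rpl-20 had 119 and 56.6, and rpl-15 had 96.2 and 41.4. Across the 61 genes the rank correlation of the windows was 0.129, given as a description.

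**Figure D4:**
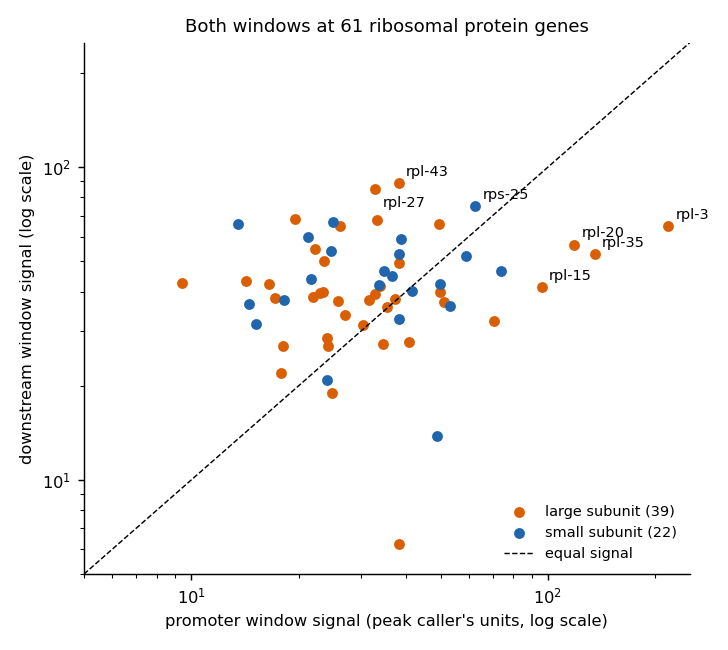
Highest signal in the promoter window (x) and 201 to 1200 bp downstream (y) at the 61 ribosomal protein genes with both, on log axes in the peak caller's units, coloured by subunit; the dashed line marks equal signal. Points above the line, 42 of 61, are stronger downstream; names mark the genes with the highest signals in either window.

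Downstream, unlike in the promoter window, the order of the subunit medians and that of the host medians were each the same in both replicates. The median downstream signal was 39.4 over all 50 large subunit genes and 45.1 over 30 of 31 small subunit genes. In replicate 1 it was 19.8 for the large and 21.6 for the small subunit, and in replicate 2 it was 22.3 and 26.5 in the same order. Over the 13 snoRNA hosts the median was 38.1, and over 67 of 68 other genes 42.4. Hosts had 19.4 and others 21.3 in replicate 1, and in replicate 2 hosts had 22.9 and others 25.3. Large subunit genes and hosts were thus the lower of each pair, and these are descriptions with no test.

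The sequence around the promoter summits was richer in G and C at ribosomal protein genes. Within 100 bp of the summit, the median GC content was 42.8% at ribosomal protein genes and 37.8% at coding genes, with means of 42.2% ± 6.13 (SD over 62 genes) and 38.5% ± 7.02 (SD over 12245 genes). The rank correlation of GC content and signal was 0.153 across the 62 and 0.246 across the coding genes. The strongest sites were not the richest: rpl-3 had 45.8%, rpl-35 and rpl-15 had 44.3% each, and rpl-20 had 36.8%. At the downstream summits the medians were 44.3% for ribosomal protein genes and 38.8% for coding genes. Whether base composition had a part in the higher signals was not tested.

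The CCAAT box was less common at these summits than at those of coding genes at large. CCAAT on either strand lay within 100 bp of the summit at 13 of 62 ribosomal protein genes, or 21.0% (Wilson interval 12.7 to 32.6%), against 35.6% of coding genes. It was absent from all 15 genes with the highest signals, a number chosen after the values were seen, and the 13 genes with it had signals of 13.5 to 41.5. None of the 7 conservative peaks that were also the strongest region of their window held it, and neither did the window around the conservative summit of rla-1. Over the whole promoter windows CCAAT occurred at 91.4% of the 81 ribosomal protein genes, against 92.5% of coding genes. Of the 281 conservative peaks of the series, 39.5% held it within 100 bp of the summit. Around the downstream summits CCAAT was present at 27 of 80 (33.8%), against 39.6% of coding genes.

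The extended box, in which CCAAT has 2 purines before it and C or G and a purine after it, occurred at 1 of the 62, against 2.39% of coding genes. Over the whole promoter windows it occurred at 12 of 81 ribosomal protein genes (14.8%), against 11% of coding genes. The gene with it at the summit was rps-21, whose region had a signal of 38.7, with 16.8 in replicate 1 and 22.9 in replicate 2. The site is printed as the one full NF-Y consensus at a promoter summit of the set, with the consensus in capitals, from chrIII:7189913-7189937 on the minus strand, which is the strand of the gene.
rps-21 site: cgctgcgcAGCCAATGGtctcgcca
Downstream, 4 of the 80 windows held the extended box, against 2.79% of coding genes, at rpl-41.2, rpl-22, rpl-1 and rps-27.

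Other words were counted on both strands in the same windows. CGCGC was present at 18 of 62 ribosomal protein genes, against 12% of coding genes, and CACGC at 17, against 14.2%. ACGCG was present at 11, against 11.9%, and it can overlap CGCGC by 4 letters. TATAA was present at 14, against 34.6%, and CACGTG at 3, against 3.77%. A match here is a description of the letters and not of a bound site.

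TACACT was present at 6 of 62 ribosomal protein genes, against 7.24% of coding genes, so it was not common in the set as a whole. The 6 were rpl-3, rpl-35, rpl-20, rpl-15, rps-1 and rpl-38, that is all 4 of the strongest and 2 of the other 58. At rpl-38 the signal was 24.5 in replicate 1 and 26.4 in replicate 2. Over the whole promoter windows, TACACT occurred at 25 of 81 ribosomal protein genes, against 36.1% of coding genes. It was also present within 100 bp of the summit of 27 of the 281 conservative peaks (9.61%).

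A longer word, ACACTCG, shares the letters ACACT with TACACT and was likewise chosen after the sequences were seen. A copy of each overlapped at rpl-20 and at rpl-15. It lay within 100 bp of the summit at 10 of 62 ribosomal protein genes, against 1.25% of coding genes. The 10 were rpl-3, rpl-20, rpl-15, rps-23, rps-19, rps-29, rpl-24.2, rpl-21, rpl-22 and rps-10, and their signals were 21.7 to 217. Over the whole promoter windows it occurred at 21 of 81 (25.9%), against 5.97%, so it also occurred in promoters of these genes away from the kept summits. Among all 281 conservative peaks it was present at 6 (2.14%).

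**Figure D5:**
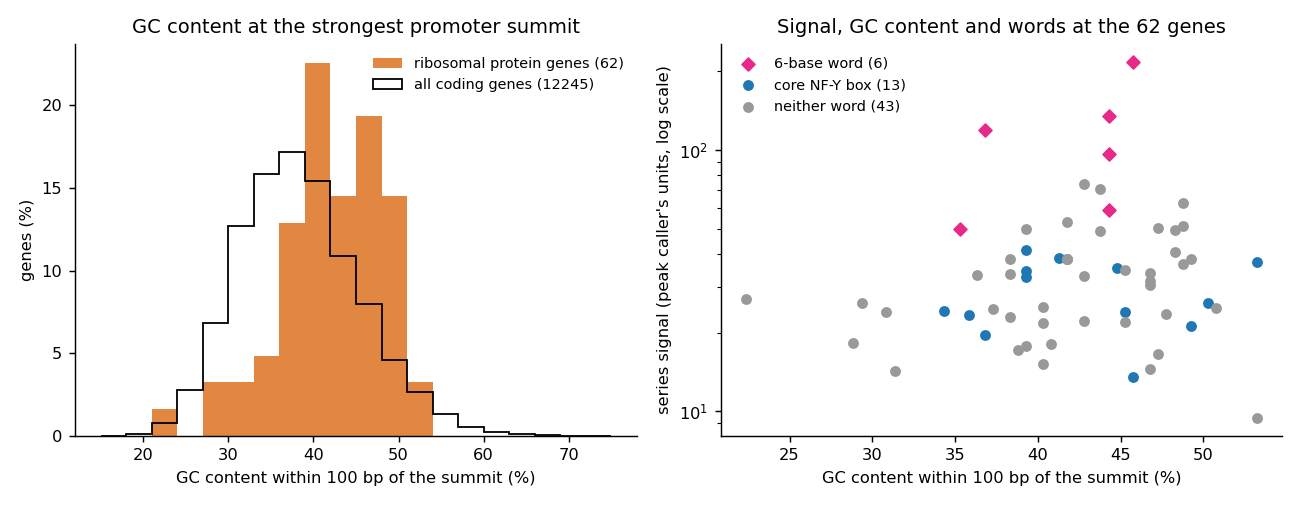
Left, GC content within 100 bp of the strongest promoter summit for 62 ribosomal protein genes (filled) and 12245 coding genes (outline), as percent of genes. Right, GC content against series signal (log axis, peak caller's units) at the 62 genes, marked by whether the 6-base word TACACT (6 genes) or the core NF-Y box CCAAT (13 genes) lies in that window; the 4 highest points all carry the 6-base word and none of the highest 15 carries the box.

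Gene groups of related function were read in the same windows, for comparison with the ribosomal protein genes. Of 70 mitochondrial ribosomal protein genes, 53 (75.7%) had a promoter region, a share close to the 76.5% of the cytosolic genes, with a median signal of 27.2. Of 44 translation factor genes 28 (63.6%) had one, with a median of 26.6, and of 32 aminoacyl-tRNA synthetase genes 18 (56.2%) had one, with a median of 29.0. Of 26 ribosome biogenesis genes 16 (61.5%) had one, with a median of 32.9. CCAAT within 100 bp of the promoter summit was as uncommon at translation factor genes (21.4%) as at ribosomal protein genes (21.0%). It was present at 31.2% of biogenesis, 38.9% of synthetase and 43.4% of mitochondrial ribosomal protein genes with a region. Median GC content was 40.0%, 40.0%, 35.8% and 39.3% in the same order of these 4 groups. No gene of these 4 groups had a conservative peak in the promoter window, against 0.726% of all coding genes. At that share, groups of this size would hold few or none. Downstream, where the coding gene share was 0.365%, fib-1, the fibrillarin gene of the biogenesis group, had one with a signal of 40.1 at 502 bp. Downstream regions were present at 62.9% of the mitochondrial ribosomal protein genes, 65.9% of the translation factor genes, 65.6% of the synthetase genes and 61.5% of the biogenesis genes, with medians of 26.0, 31.6, 25.2 and 24.0 in the same order. The ribosomal protein genes had 98.8% and 41.5, and all coding genes 58.4% and 25.4. Further genes of the cytosolic ribosome fall outside the naming rule, and 3 were read. The strongest promoter region had a signal of 19.8 at ubl-1 and 50.5 at ubq-2, which encode ribosomal proteins fused to a ubiquitin-like protein or ubiquitin, and of 8.95 at rack-1, a scaffold on the small subunit.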

How the data were processed

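Peak lists that the authors deposited were used, and no reads were used here. The signal of each region is the peak caller's own value, in arbitrary units, as deposited. The ranked lists hold −log10 of the global IDR, as the authors computed it, and it was turned into an IDR here. Assembly ce11 and filtered alignments with a control as input are stated per the file headers, and the aligner and peak caller were not stated in labels or headers. What the other series list compared was not established. The 2 unlabelled replicate signals were assigned by equality with each replicate's own list. The first signal equalled a value of replicate 1 at 61.5% of 71547 regions and of replicate 2 at 0%, and the second a value of replicate 2 at 47.0% and of replicate 1 at 0%. At each of the 200 strongest regions the assignment held for both columns.

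Genes and 346 snoRNA genes came from Ensembl release 115 on WBcel235, whose sequence is that of ce11. Summits were joined to gene starts in Python 3.11.15 with pandas 2.3.3 and numpy 2.4.6, and Wilson intervals came from statsmodels 0.14.6. On simulated data, 110 of 110 summits planted inside the window were recovered at the planted offset. With 1 group and 2 replicates no test was made, and genes are not replicates, so values stand beside those of all coding genes and in each replicate. Depth is unknown without counts. Named are the genes with conservative peaks, the 10 highest and 5 lowest signals, all genes without a region, the rla genes, genes that differ by a suffix, and those with the extended box. rpl-38 and the genes named for the words after CCAAT or for downstream regions were chosen after their values were seen. The genes and lists were chosen with earlier results of these data known. In the lists, 5 of 6 names typed for translation factors and 26 of 29 for ribosome biogenesis were matched. Alternatives changed the window, the list, the kept region, the gene start, the width around the summit and the replicates used. The sequence around the rpl-3 summit is not reported here.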

Additional observations from a re-analysis of the deposited data

How the results depend on the processing

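With a window from 500 bp upstream to 100 bp downstream, the median signal of the ribosomal protein genes was 25.9, its ratio to coding genes 1.07, the ratio of snoRNA hosts to others 1.46 and the median offset -259 bp. With 2000 bp upstream, the median signal was 36.6, the offset -859 bp and the GC content 41.3%. In the other ranked list of the series the median signal was 27.3, its ratio to coding genes 1.19, the host ratio 1.39 and the GC content 41.8%. Keeping the region nearest to the start gave a median of 26.4, a ratio to coding genes of 1.11, a host ratio of 1.41, an offset of -172 bp and a GC content of 42.5%. Any annotated transcript start gave -279 bp and 43.8%, and regions nearest to the ribosomal protein gene gave -192 bp and 43.8%. GC content was 46.5% within 50 bp of the summit and 39.9% within 150 bp, where CCAAT was present at 35.5%. The coding gene values given above are for 100 bp, so they cannot be set beside these. Replicate signals at the kept regions had medians of 15.9 and 18.0. In each replicate's own lists the offset ranged from -338 to -283 bp, and 4 genes had a thresholded promoter peak in either. By replicate signals at the same kept regions, the ratio of large to small subunit turned to 1.03 in replicate 1 and was 0.784 in replicate 2. That of hosts to others turned to 0.837 in replicate 2 and was 1.15 in replicate 1. Neither replicate was left out of the choice of these regions. The cause was not tested. Promoter peaks numbered 13 at an IDR of at most 0.05 and 5 in the stronger part of the conservative list. Downstream peaks numbered 4 to 5 in single replicates, 20 in the other thresholded list, 5 in the stronger part and 7 where the nearest coding start was required. Fewer than 7 of the named downstream peaks had the start of their own gene nearest, and the reason was not established. The downstream ratio to coding genes was 1.91 by replicate 2 signals and 1.64 by replicate 1 signals at the kept regions. The other 56 values kept their direction. They moved by less than the spread between replicates, or less than 1.5 times for counts and the CCAAT share, for which no such spread was computed. Within 100 bp of the summit, that share was 17.9% to 28.4% over the alternatives, against 21.0% as reported. No coding gene share is given for those settings. No paired analysis was possible because the labels hold 1 group.

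Without an untagged sample or read counts, no signal could be set against background at the same gene. A region within reach of several starts was counted for each of them, and 35 of the 62 promoter regions were of that kind. Signals are relative within a list, and 2 libraries give each spread 1 degree of freedom. The downstream window and the words TACACT and ACACTCG were chosen on the values they describe.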
